A study of Mus musculus with 12 samples.

Results

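The nuclear genes for subunits of the oxidative phosphorylation complexes were followed in CT26 tumours. CT26 is a mouse colon carcinoma cell line derived from the BALB/c strain, grown here as tumours in mice. Members were the entries of the deposited table whose symbols begin with Nduf followed by a, b, c, s or v and a number, with Uqcr, with Cox4 to Cox8 or with Atp5, together with Cyc1 and Sdha to Sdhd. The 13 symbols with -ps, which mark pseudogenes, were left out. This rule took 92 of 55415 entries, and 85 of them were among the 13668 genes tested, that is, genes with at least 1 FPKM (counts scaled to 1 kb of exons and to a library of 1 mega count) in at least 3 of 12 libraries. By complex, 38 of 40 members of complex I were tested, 4 of 4 of complex II, 9 of 9 of complex III, 17 of 21 of complex IV and 17 of 18 of complex V. The rule does not take Ndufab1, the genes of assembly factors or the subunits encoded by mitochondrial DNA. Those were followed as separate lists.

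The 12 bulk RNA libraries form 4 groups of 3: tumours of untreated mice (control), of mice given the compound that the study names Complex 1, of mice given radiation, and of mice given both (the combination). The series title calls the compound a platinum complex activated by X-rays. No dose, time, mouse strain, age or tumour position relative to the irradiated field is given in the labels, and the tumour cells of all groups are labelled wild type. The labels do not state that the 3 libraries of a group came from different mice, so p-values measure only the spread between these libraries. In the text, Complex 1 with an Arabic numeral is the compound, and complexes I to V with Roman numerals are the enzymes.

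Oxidative phosphorylation moves electrons from NADH and succinate to oxygen within the inner mitochondrial membrane and uses the resulting proton gradient across it to make ATP. Complex I oxidises NADH, complex II oxidises succinate, complex III passes electrons from ubiquinol to cytochrome c, complex IV reduces oxygen, and complex V is the ATP synthase. Each complex except complex II joins subunits encoded by mitochondrial DNA to the nuclear-encoded ones described here. Tumour cells such as those of colon carcinoma make ATP both by this route and by glycolysis.

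Libraries held 15.6 to 19.1 mega counts, and the 92 members together took 0.642% to 0.771% of them. Replicates of each group differed beyond counting noise (the smallest chi-square of a pair, divided by its degrees of freedom, was 4.90). This cannot tell libraries of different tumours from repeat libraries of the same tumour. Xist was at 0.02 FPKM in control 2 and at 9.20 to 14.2 FPKM in the other 11 libraries, so control 2 stands apart on that gene. Among epithelial markers Epcam was at 0.18 FPKM or less in every library, and Krt18 was at 2.81 to 7.72 FPKM. Summed marker levels differed between groups. Summed FPKM of 8 macrophage markers ran from 981 to 1169 in control and 1373 to 1521 with Complex 1. It ran from 2064 to 2242 with radiation and 2076 to 2202 in the combination. Lyz2 was the largest part of this macrophage sum, with a mean of 576.6 FPKM in control and 1239 with radiation. The macrophage markers did not all move alike: Csf1r and Mrc1 in each treated group overlapped control. The sum of 8 cell-cycle genes was 395 to 438 in control, 427 to 453 with Complex 1, 323 to 372 with radiation and 314 to 347 in the combination. The sum of 6 neutrophil markers was 11.4 to 20.03 in control, 92.5 to 200.4 with Complex 1, 10.4 to 36.1 with radiation and 248.5 to 412 in the combination. T cell and NK markers (8 genes) summed to 25.5 to 48.7, 29.3 to 85.6, 65.1 to 123.7 and 136.6 to 182.4 FPKM in the same order of groups. Gzmb was the largest part of this sum, with a mean of 17.6 FPKM in control and 93.4 in the combination. The T cell genes did not follow it in every library. In radiation 2, Cd3d (0.26), Cd3e (0.41), Cd3g (0.94) and Cd8a (1.06 FPKM) were at their lowest of the 12 libraries, while Gzmb was at 45.7 FPKM. None of the markers in these 4 lists was at 0 in every library. The part of cell composition in the results below was not tested, and in bulk tissue fewer cells of a type and less RNA per cell cannot be told apart.

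Most members were well expressed on the FPKM scale. That scale divides by the exonic length listed for each gene. This length need not be that of the transcripts present, so levels of different genes compare only roughly. The median over members of the mean level in 12 libraries was 26.8 FPKM for complex I, 39.2 for complex II, 47.2 for complex III, 50.4 for complex IV and 39.8 for complex V. The highest member was Atp5b, the catalytic beta subunit of the ATP synthase, at 252 ± 3.77 FPKM in control (SD, n = 3), followed by Cox6a1 and Cox8a, small subunits of complex IV. Cox6a1 had 186 ± 9.88 FPKM and Cox8a 182 ± 12.7 FPKM in control (SD, n = 3), a difference within the SD. In complex I the highest level was that of Ndufa2, an accessory subunit, with a mean of 110.5 FPKM over the 12 libraries. In complex III it was Uqcrb, the ubiquinone-binding protein, at 73.9, and the lowest was Uqcrc1, a core protein, at 27.6 FPKM. The 3 genes that encode the same c subunit of the ATP synthase rotor differed widely in FPKM: Atp5g2 stood at 102.5, Atp5g3 at 75.2 and Atp5g1 at 6.53 FPKM. Their listed exonic lengths were 1675, 2181 and 4912 bases in that order, and the part of this divisor in the difference was not tested. The ranges of these 3 genes over the 12 libraries did not overlap between Atp5g1 and either of the others, while Atp5g3 reached 89.1 FPKM and Atp5g2 fell as low as 87.7 FPKM in single libraries.

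Isoforms known from other tissues were low or absent. Cox4i1, the common form of subunit IV, stood at 162.6 FPKM and Cox4i2, its hypoxia-inducible form, at 1.11 FPKM (means of 12 libraries). Ndufa4, once assigned to complex I and counted here with complex IV, stood at 32.0 FPKM, and its hypoxia-inducible relative Ndufa4l2 at 3.50 FPKM. Cox7a2 stood at 50.4 and its muscle form Cox7a1 at 2.85 FPKM. Cox6b1 had 139.7 FPKM, whereas its testis form Cox6b2 had 56 counts in all 12 libraries together and was not tested. Cox7b was at 74.5 FPKM, and Cox7b2 had 1 count in all. The muscle form Cox8b had 4 counts and Cox8c had none. A count of 0 allows up to 3 counts, which are worth 0.157 to 0.192 FPKM in a gene with 1 kb of exons. Ndufa11b had 9 counts, and Ndufb11b and the second entry named Atp5o had none. These 7 entries are the members below the filter. Counts of some members, at low and at high levels, are uncertain because their sequence occurs elsewhere: all 31-base words of Ndufb4c are also found in other loci, as are 61.7% of Cox6c2, 49.6% of the tested Atp5o entry, 45.3% of Ndufs6b and 40.2% of Atp5g2.

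**Figure D1:**
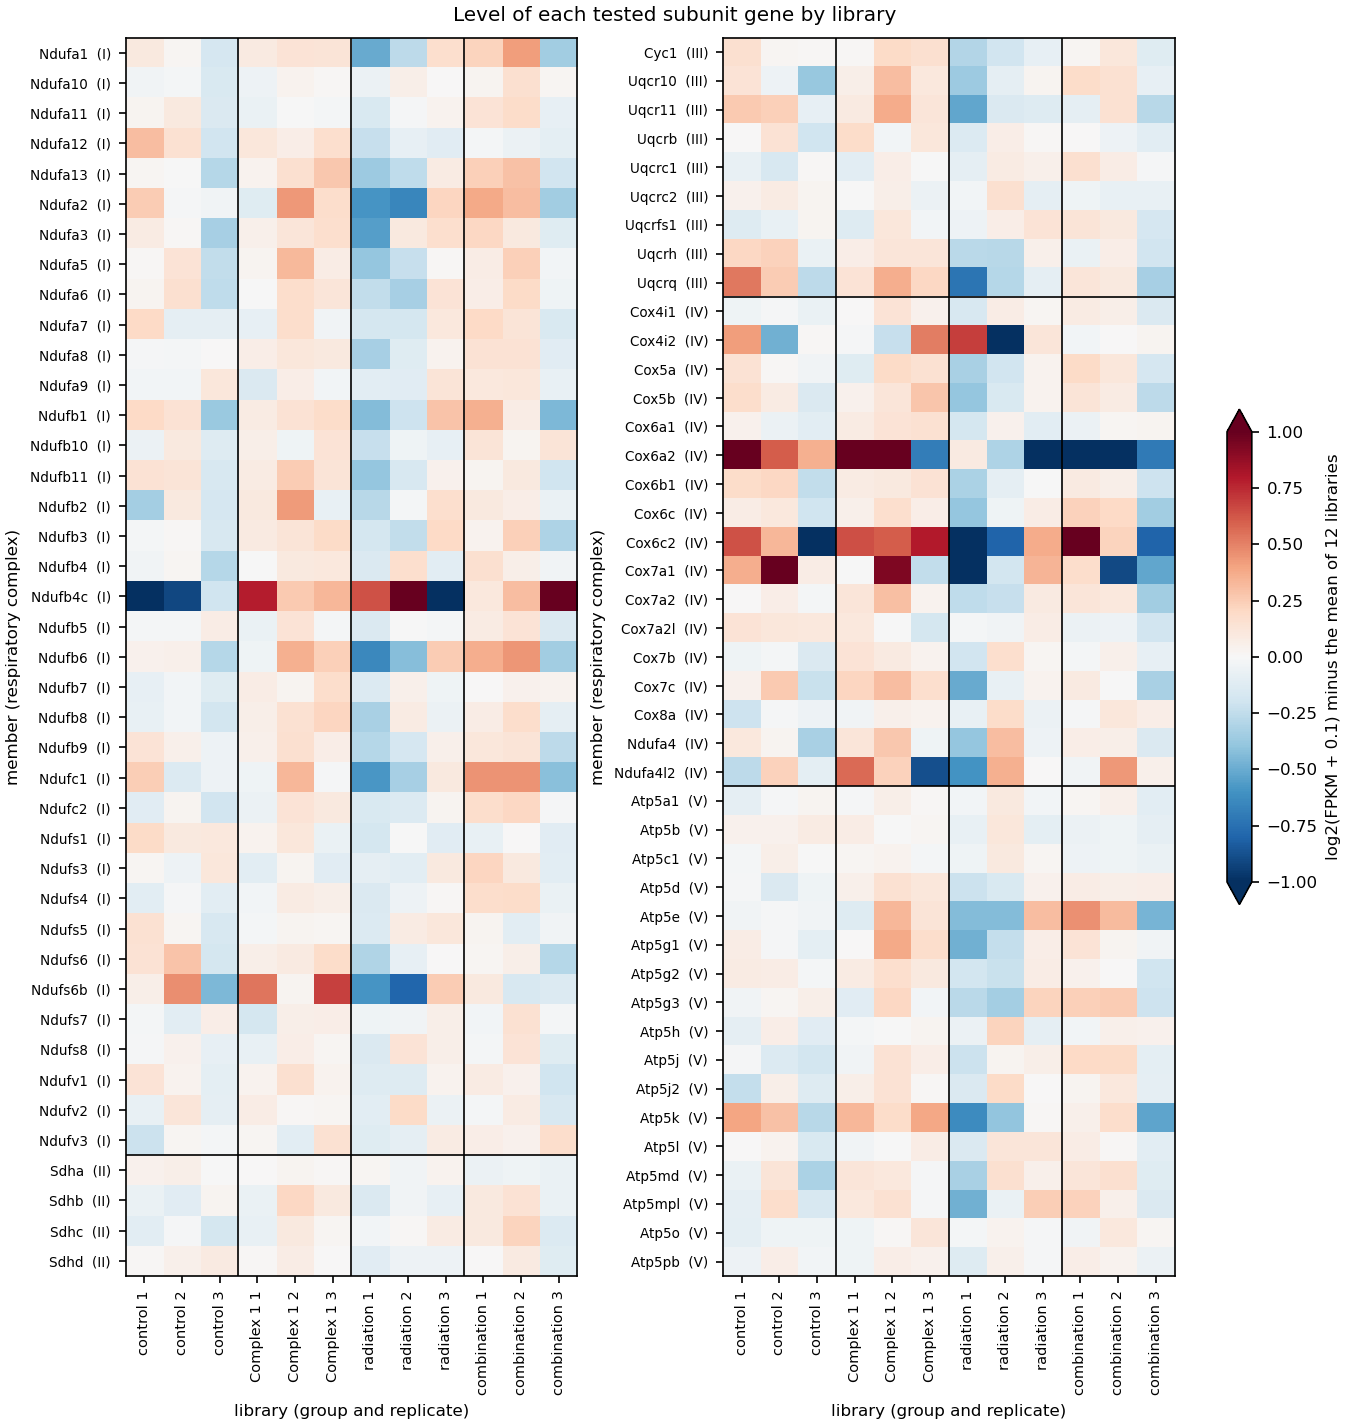
Level of the tested members, except 1 that is not reported (rows, with the respiratory complex in brackets) in each of the 12 libraries (columns, group and replicate), as log2(FPKM + 0.1) minus the mean of the 12 libraries, with colours saturating at 1 in either direction. Most rows stay pale in every group, radiation 1 and combination 3 are the bluest columns, and the strongest colours belong to low-level members such as Cox6a2, Cox7a1 and Ndufb4c.

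Members varied together from library to library, also within groups. The median deviation of the 85 members from their mean over the 12 libraries (log2 CPM) was lowest in radiation 1 (-0.18), combination 3 (-0.14), control 3 (-0.083) and radiation 2 (-0.076). In the other 8 libraries it lay between 0.03 and 0.11, with the highest value in replicate 2 of Complex 1. By group it was 0.01 ± 0.081 in control, 0.073 ± 0.034 with Complex 1, -0.075 ± 0.11 with radiation and -0.002 ± 0.12 in the combination (SD, n = 3). Every group but Complex 1 thus held both low and high libraries. The means of control, radiation and combination differed by less than the SD of the radiation group. Those of Complex 1 and radiation differed by more than the SD of any group. The size of the swing followed gene length. The 23 members with under 1000 bases of exons spanned 0.47 between the lowest and the highest library, the 32 of 1000 to 2000 bases spanned 0.34, and the 30 of 2000 bases or more spanned 0.21. In the same order of length classes, all 1998, 1644 and 10026 tested genes spanned 0.21, 0.11 and 0.029. The last class holds most tested genes, so the scaling between libraries keeps its span small. Over the 85 members exonic length and the pooled SD between replicates had a Spearman correlation of -0.53, given as a description because members share libraries and depth. Complex II, whose 4 genes have a median of 2744 bases, spanned 0.21, and complex IV, with a median of 1095 bases, spanned 0.46. The other complexes did not keep this order. Complex I (median 1393 bases) spanned 0.28, complex III (1363 bases) 0.42 and complex V (2181 bases) 0.31. The part of gene length in the comparisons below was not tested by itself. The comparisons were repeated with each library's trend on length removed.

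**Figure D2:**
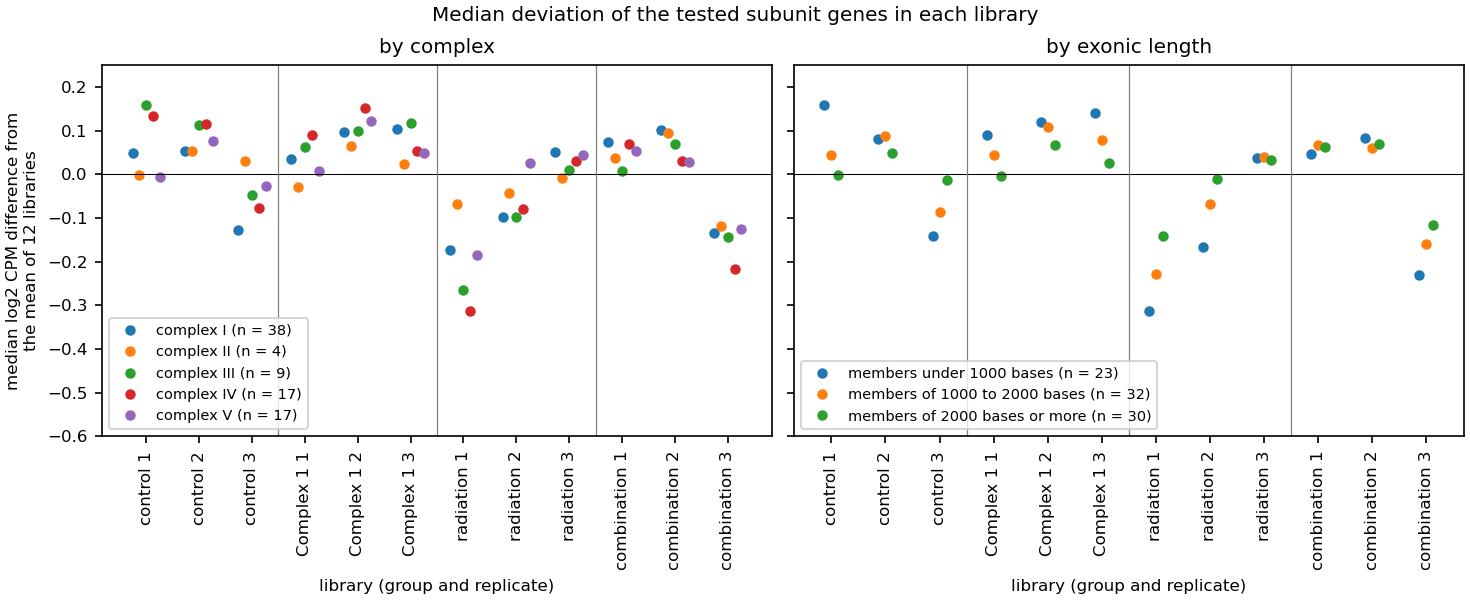
Median log2 CPM difference from the mean of 12 libraries (vertical axis) of the tested members in each library (horizontal axis, group and replicate), on the left by respiratory complex and on the right by exonic length. Radiation 1 and combination 3 lie lowest, and members under 1000 bases reach -0.31 in radiation 1 where those of 2000 bases or more reach -0.14.

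Radiation alone left most subunit genes within small distances of control and lowered 2 of them. Cyc1 (cytochrome c1, the haem protein of complex III) and Ndufs1 (the largest core subunit of complex I, in its NADH-oxidising arm) fell, none of the 85 rose, and 9 had an unadjusted p under 0.05. This count of 2 lower members compares with 5.86% of all tested genes lower and 13.2% changed in either direction (edgeR's quasi-likelihood test, Benjamini-Hochberg adjusted p under 0.05). The median log2 fold change of the members was -0.083, with 65 of 85 below 0, against -0.0055 for all tested genes. The interval of 95% lay inside a 1.5-fold change in both directions for 69 members, and 74 had a log2 fold change smaller than 0.3. By complex the medians were -0.095 (I), -0.058 (II), -0.075 (III), -0.14 (IV) and -0.057 (V). Without radiation 1 the median was -0.026 and no member passed. Without control 1 none passed either, whereas 9 members were lower without control 3 and 4 without radiation 3, in which fit Ndufb4c was also higher. With the length trend removed 8 were lower, beside 9.53% of all tested genes, and the median was -0.15 with 76 of 85 below 0.

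Cyc1 (chromosome 15, 76227723 to 76230460) had 52.6, 47.6 and 47.4 FPKM in control, 47.5, 53.6 and 52.5 with Complex 1, 38.3, 41.2 and 44.3 with radiation and 47.7, 50.85 and 43.3 in the combination. All 3 radiation libraries lay below all 6 libraries without radiation, and the combination overlapped control. The log2 fold change was -0.28 ± 0.079 (SE) for radiation against control (edgeR adjusted p = 0.0334) and -0.11 ± 0.079 for combination against control (adjusted p = 0.375). The first call was lost without control 1, control 2, radiation 1 or radiation 2, with an adjusted p of up to 0.134. It was also lost with library totals only (0.0536), with only the groups compared (0.0545) and in limma (0.072 with pseudocount 1). Ndufs1 (chromosome 1, 63182755 to 63215992) had 11.5, 10.8 and 10.9 FPKM in control, 10.4, 10.9 and 9.65 with Complex 1, 8.96, 10.1 and 9.32 with radiation and 9.57, 10.15 and 9.34 in the combination. Each irradiated library was below each control library, and the Complex 1 libraries overlapped both. The fall was -0.26 ± 0.064 with radiation (edgeR adjusted p = 0.0198) and -0.24 ± 0.064 in the combination against control (adjusted p = 0.0164). The radiation call was lost without control 1, radiation 1 or radiation 3 (adjusted p up to 0.092), and the combination call without control 1 or combination 3 (up to 0.0687). Both calls were also lost in limma (adjusted p = 0.0517 and 0.0646 with pseudocount 1), and the combination call with library totals only (adjusted p = 0.0543).

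When radiation and combination (6 irradiated libraries) were set against control and Complex 1 (6 non-irradiated libraries), called the effect of radiation below, 9 members were lower and none was higher. These were Ndufs1 and Ndufa12 of complex I, Cyc1, Uqcr11, Uqcrh and Uqcrq of complex III, Cox6a2 of complex IV, and Atp5g2 and Atp5k of complex V. They are 10.6% of the tested members, beside 13.2% of all tested genes lower and 26.5% changed in either direction. The share of members that fell was thus near that of all genes in this fit. The median of the members was -0.068 on the log2 scale with 66 of 85 below 0, the median of all genes was -0.0051, and 19 members had an unadjusted p under 0.05. The 9 calls fell to 4 without control 1, control 2, radiation 1 or combination 3, and rose to 13 without control 3. With the length trend removed 22 of 85 members were lower, beside 18.0% of all tested genes. In that fit the share of members was above that of all genes, and the difference was not tested. The median of the members was then -0.11, with 79 of 85 below 0.

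By complex, 2 of 38 tested members of complex I, 0 of 4 of complex II, 4 of 9 of complex III, 1 of 17 of complex IV and 2 of 17 of complex V were lower in irradiated tumours. The corresponding medians were -0.05, -0.061, -0.098, -0.12 and -0.042. In this fit complex III had the highest share of called members and complex IV the lowest median. With the length trend removed 6 of 38, 2 of 4, 4 of 9, 5 of 17 and 5 of 17 were lower in the same order, and complex II had the highest share. The calls of Uqcrh and Uqcrq in complex III were each lost in 5 of 12 fits that left out 1 library, and in limma. No test between complexes was made, since members of a complex vary together and share the libraries. In complex IV, 15 of 17 members lay below 0 and 7 had an unadjusted p under 0.05, of which Cox6a2 alone passed.

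**Figure D3:**
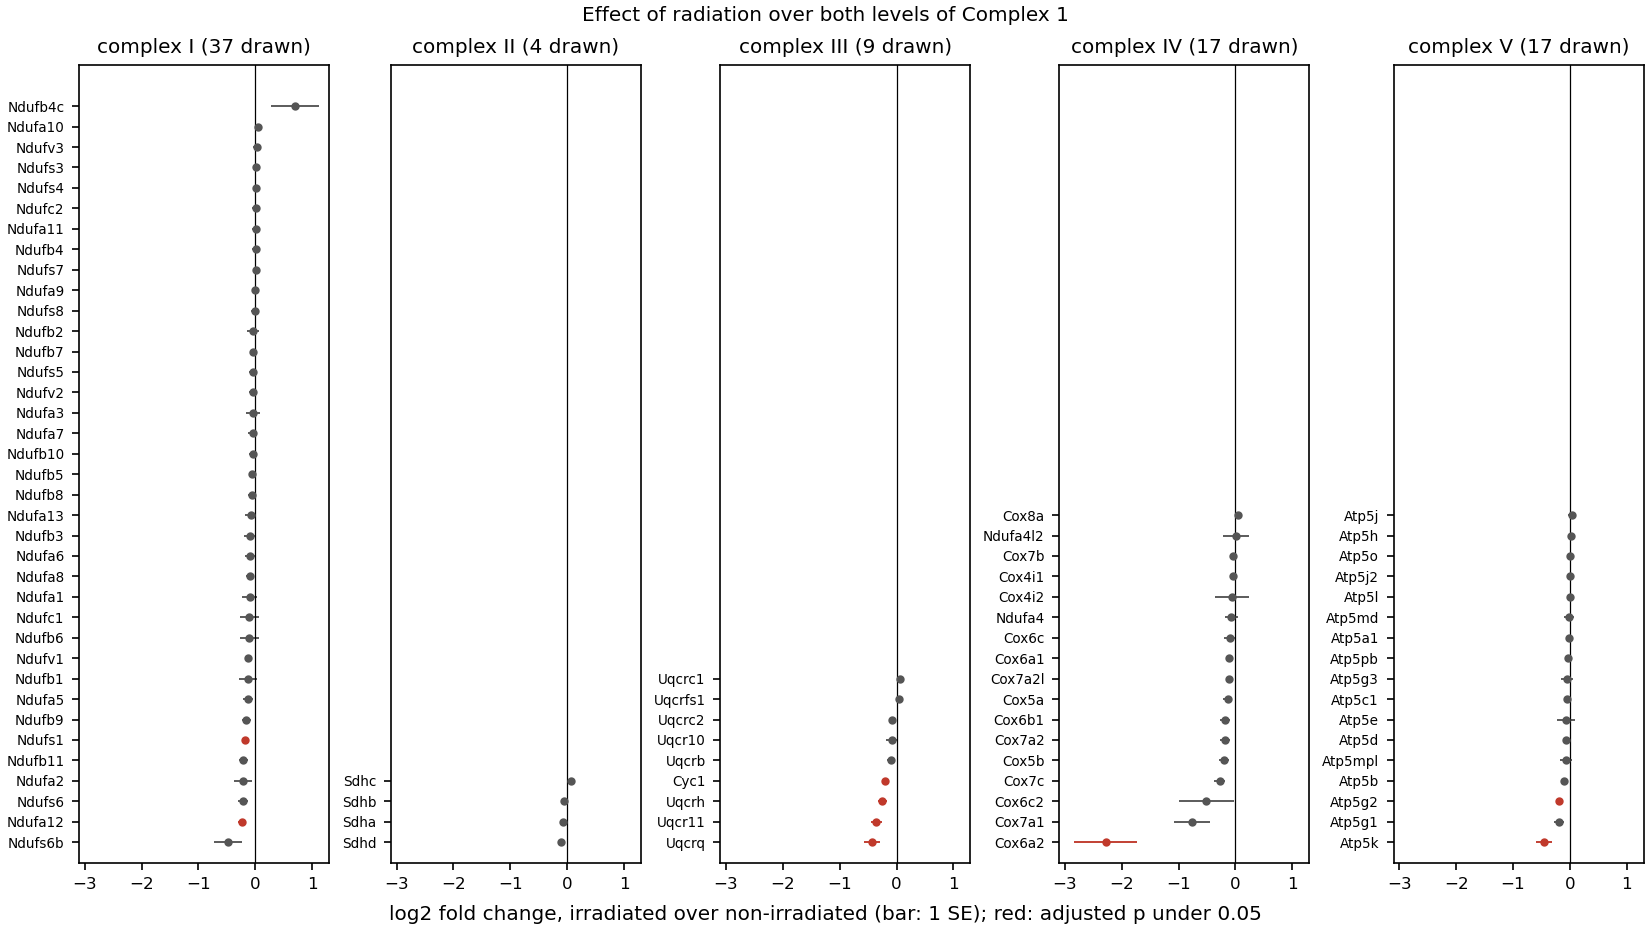
Log2 fold change of irradiated over non-irradiated tumours for the tested members, except 1 that is not reported, with 1 panel per complex and members ordered by value. Points are edgeR estimates, bars are 1 SE, and red marks an adjusted p under 0.05. The 9 red points all lie below 0, and Cox6a2 lies farthest out at -2.28.

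In complex III, Cyc1, Uqcr11, Uqcrh and Uqcrq fell in irradiated tumours and the other 5 members did not pass. Uqcr11, a small membrane subunit (chromosome 10, 80238831 to 80242664), had 58.5, 57.5 and 46.2 FPKM in control, 52.0, 63.2 and 53.2 with Complex 1, 33.9, 44.2 and 44.7 with radiation and 46.0, 54.4 and 40.2 in the combination. Its radiation libraries lay below all non-irradiated ones, and combination 2 lay among the controls. The effect of radiation was -0.35 ± 0.097 (SE; edgeR adjusted p = 0.0171), and this call was kept in each of the 12 fits that left out 1 library, as were those of Cyc1 (-0.21 ± 0.056, adjusted p = 0.0151), Ndufs1 (-0.18 ± 0.045, adjusted p = 0.00924) and Cox6a2. Uqcrh, the acidic hinge protein that contacts cytochrome c1 (chromosome 4, 115924162 to 115932268), had 75.4, 76.4 and 62.3 FPKM in control, 68.3, 70.9 and 71.2 with Complex 1, 54.3, 53.9 and 67.7 with radiation and 62.5, 68.5 and 57.1 in the combination. Irradiated and non-irradiated libraries overlapped: control 3 lay below radiation 3, combination 1 and combination 2, and combination 2 lay just above replicate 1 of Complex 1. The effect was -0.25 ± 0.073 (edgeR adjusted p = 0.024), and it was lost without control 1, control 2, radiation 1, radiation 2 or combination 3 (adjusted p up to 0.0642). Uqcrq, a ubiquinone-binding subunit (chromosome 11, 53318749 to 53321658), had 48.3, 39.8 and 27.9 FPKM in control, 36.7, 43.0 and 38.6 with Complex 1, 20.2, 27.5 and 31.5 with radiation and 36.3, 35.8 and 26.5 in the combination. Control 3 was as low as irradiated libraries. The effect was -0.43 ± 0.14 (edgeR adjusted p = 0.0323), lost without control 1, control 2, replicate 2 of Complex 1, radiation 1 or combination 3 (adjusted p up to 0.0825). The core protein Uqcrc1 had a value of 0.063 ± 0.051 (adjusted p = 0.39), and the Rieske iron-sulfur protein gene Uqcrfs1 one of 0.051 ± 0.063 (adjusted p = 0.594). The other core protein gene Uqcrc2 had -0.073 ± 0.046 (adjusted p = 0.269), Uqcrb -0.098 ± 0.065 (adjusted p = 0.29) and the small subunit gene Uqcr10 -0.083 ± 0.095 (adjusted p = 0.558).

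In complex I, Ndufa12, an accessory subunit (chromosome 10, 94034582 to 94057305), had 34.5, 30.85 and 24.3 FPKM in control, 30.1, 29.1 and 31.2 with Complex 1, 23.7, 26.3 and 25.65 with radiation and 27.4, 26.6 and 26.0 in the combination. All irradiated libraries lay below 5 of the 6 others, and control 3 lay among them. The effect was -0.23 ± 0.075 (SE; edgeR adjusted p = 0.0333), kept in 4 of 12 fits that left out 1 library, with an adjusted p of up to 0.0828, and lost in limma. The calls lost were those without control 1, control 2, Complex 1 replicate 1 or 3, radiation 1 or 3, or combination 2 or 3. In complex V, Atp5g2, whose mature product is the c subunit of the rotor ring (chromosome 15, 102571299 to 102580787), and 40.2% of whose 31-base words occur elsewhere, had 108.3, 107.8 and 100.9 FPKM in control, 107.8, 114.8 and 109 with Complex 1, 89.75, 87.7 and 107.3 with radiation and 105, 102 and 88.9 in the combination. Radiation 1, radiation 2 and combination 3 were low, and the other irradiated libraries overlapped the non-irradiated ones. The effect was -0.18 ± 0.06 (edgeR adjusted p = 0.0394), kept in 3 of 12 such fits (those without control 3, radiation 3 or combination 1). It was also lost with a replicate block (adjusted p = 0.0559), with library totals only (0.0674) and in limma (0.077 with pseudocount 1). Atp5k, subunit e, known for its place where ATP synthase forms dimers (chromosome 5, 108581110 to 108582314), had 45.8, 42.55 and 28.6 FPKM in control, 43.7, 39.5 and 45.3 with Complex 1, 22.4, 26.4 and 35.0 with radiation and 36.0, 39.3 and 24.1 in the combination. Control 3 again lay among the irradiated libraries. The effect was -0.45 ± 0.15 (edgeR adjusted p = 0.038), kept in 4 of 12 fits (without control 3, radiation 3, combination 1 or combination 2) and otherwise with an adjusted p of up to 0.0922. A replicate block ended this call too (adjusted p = 0.0516), as did limma (0.0656 with pseudocount 1). The other c subunit genes had values of -0.19 ± 0.091 (Atp5g1, adjusted p = 0.134) and -0.042 ± 0.11 (Atp5g3, adjusted p = 0.805).

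Cox6a2, the heart and skeletal muscle form of complex IV subunit VIa, had the widest change but a low level. Its gene (chromosome 7, 127804607 to 127805559) had 7.38, 1.69 and 1.41 FPKM in control, 3.08, 2.92 and 0.63 with Complex 1, 1.15, 0.85 and 0.47 with radiation and 0.09, 0.44 and 0.62 in the combination. These levels rest on 92, 22 and 17 counts in control, 38, 31 and 7 with Complex 1, 14, 11 and 6 with radiation and 1, 5 and 8 in the combination. Every irradiated library lay below every control library, and replicate 3 of Complex 1 lay among the irradiated ones. The effect of radiation was -2.28 ± 0.55 (SE; edgeR adjusted p = 0.00887), and without 1 library in turn it ran from -2.55 to -1.70. Combination against control gave -3.15 ± 0.81 (adjusted p = 0.0145), which was lost without control 1 or combination 1 (adjusted p up to 0.0775). This value ran from -3.69 to -1.99 without 1 library in turn, the smaller of these without control 1, and was -1.47 in limma on log2(FPKM + 1). Radiation against control gave -2.10 ± 0.71 (adjusted p = 0.0688). The common isoform gene Cox6a1 had a value of -0.11 ± 0.047 for the effect of radiation (adjusted p = 0.112). The muscle form Cox7a1 had 3.37, 5.57 and 2.74 FPKM in control and 2.95, 1.34 and 1.78 in the combination, with an effect of radiation of -0.76 ± 0.31 (adjusted p = 0.0902). The summed FPKM of 8 skeletal muscle markers, none of them at 0 in every library, was 4.62 to 6.70 in control, 3.62 to 5.89 with Complex 1, 5.24 to 20.8 with radiation and 4.82 to 15.5 in the combination. The highest sums were those of radiation 1 and combination 2 alone. Members of that list differed in level. Ckm was at 0.27 FPKM or less in every library, whereas Acta1 ran from 0.07 to 10.89 FPKM over the 12 libraries. Mylpf ran from 0.26 to 3.10 and Tnni2 from 1.54 to 5.91 FPKM. Of the 3 skeletal muscle markers tested, 1 was higher and 0 lower for the effect of radiation. The summed FPKM of 5 pericyte markers was 20.4 to 26.5 in control, 19.7 to 25.1 with Complex 1, 23.8 to 28.7 with radiation and 20.6 to 26.5 in the combination, and none of them was at 0 in every library. Among these, the potassium channel subunit gene Kcnj8 had 2.33, 0.72 and 0.82 FPKM in control, 1.3, 1.58 and 0.50 with Complex 1, 0.96, 1.20 and 0.67 with radiation and 0.97, 0.89 and 0.79 in the combination. Its partner Abcc9 had 1.25, 0.59 and 0.57 FPKM in control, 0.89, 0.87 and 0.28 with Complex 1, 0.85, 0.85 and 0.47 with radiation and 0.48, 0.36 and 0.41 in the combination. Control 1 was highest and replicate 3 of Complex 1 was lowest among non-irradiated libraries in Cox6a2, Kcnj8 and Abcc9. The other pericyte markers did not share this order. Rgs5 was highest in control 1 (5.40 FPKM) and lowest in control 3 (2.92). Pdgfrb ran from 15.4 in control 2 to 17.6 in replicate 1 of Complex 1, and Cspg4 from 0.09 in control 2 to 0.27 in replicate 2 of Complex 1. Of the 3 pericyte markers tested, 1 was higher and 0 lower for the effect of radiation, and Abcc9 was not tested. The part of muscle or pericyte content in the values of Cox6a2 was not tested.

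**Figure D4:**
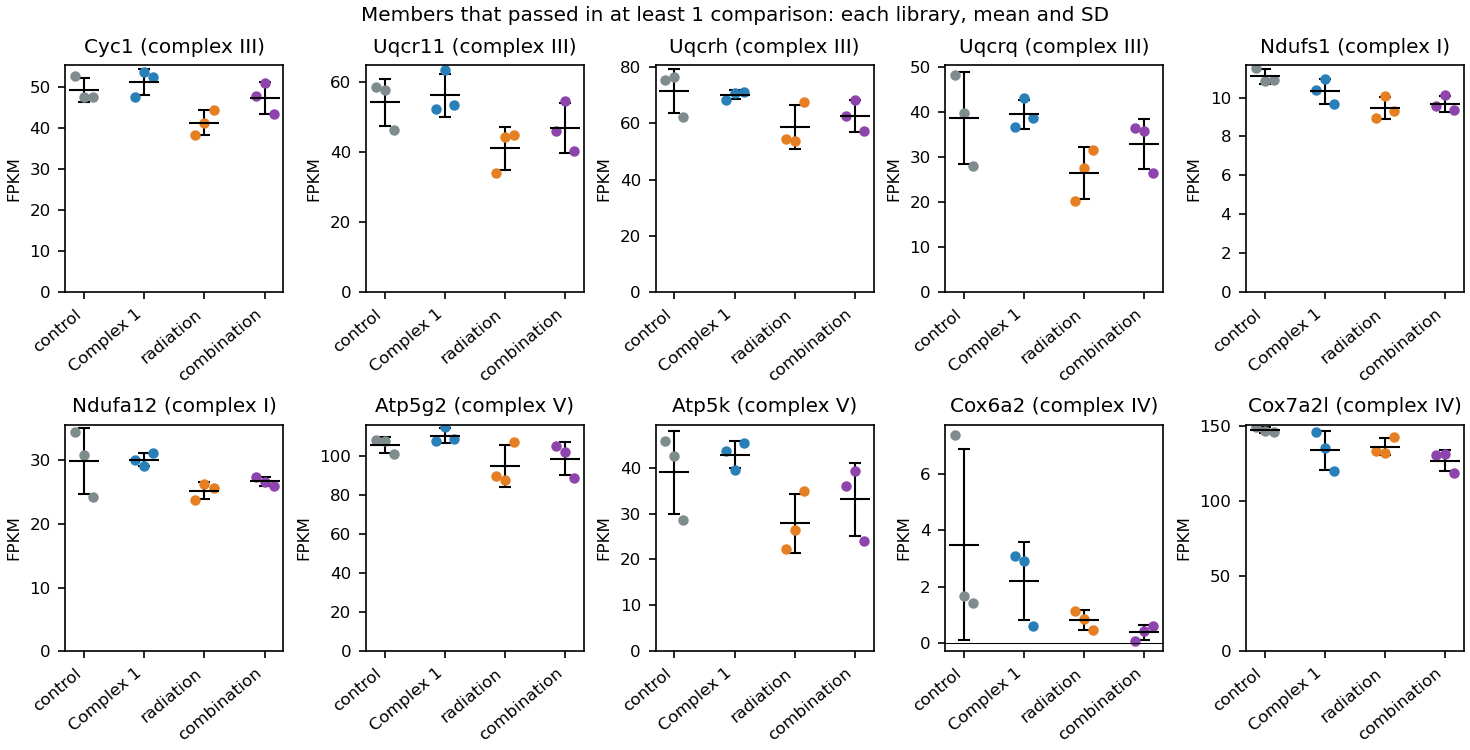
FPKM (vertical axes from 0 or just under it) in each library, with the mean and SD of each group of 3, for the 10 members that passed in at least 1 comparison. In Cyc1 and Uqcr11 the radiation points lie below all control and Complex 1 points. In Uqcrq, Ndufa12 and Atp5k the lowest control point lies among the irradiated ones.

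Complex II spanned the least of the 5 complexes between libraries (0.21, above). Sdha, the flavoprotein that oxidises succinate and also serves the citric acid cycle, had the smallest spread between replicates of all 85 members (pooled SD 0.03 on the log2 scale). It had 50.7, 51.4 and 49.2 FPKM in control, 49.3, 50.1 and 49.75 with Complex 1, 50.03, 48.1 and 50.6 with radiation and 47.3, 47.8 and 47.1 in the combination. The 3 combination libraries were below the other 9, with a log2 fold change against control of -0.14 ± 0.052 (SE; edgeR adjusted p = 0.0764). The iron-sulfur subunit gene Sdhb had an effect of radiation of -0.05 ± 0.055 (adjusted p = 0.536). Of the membrane anchors, Sdhc had 0.062 ± 0.061 (adjusted p = 0.492) and Sdhd -0.10 ± 0.043 (adjusted p = 0.0907). No gene of this complex passed in any comparison with edgeR and TMM scaling. Sdha was lower in the combination against control in DESeq2, and with the length trend removed Sdha and Sdhd were lower in the combination against control and in the effect of radiation, and Sdhd with radiation alone.

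The combination lowered 3 of 85 members relative to control and raised none, beside 10.0% of all tested genes lower and 21.9% changed in either direction. They were Ndufs1, Cox6a2 and Cox7a2l, and 9 members had an unadjusted p under 0.05. The median was 0.0031 with 42 of 85 below 0. This balance depended on the scaling: the median was -0.13 with 70 below 0 when the length trend was removed, and 0.051 with 30 below 0 when only library totals were used. The interval was inside a 1.5-fold change for 73 members. Cox7a2l, a factor that joins complexes III and IV into supercomplexes (chromosome 17, 83809347 to 83824759), had 149.7, 146.6 and 146 FPKM in control, 146, 135.8 and 120.3 with Complex 1, 133.75, 132 and 143 with radiation and 130.5, 131 and 119 in the combination. The combination libraries lay below all controls. The change was -0.26 ± 0.073 (SE; edgeR adjusted p = 0.0212), lost without control 1, control 2 or combination 3 (adjusted p up to 0.0899), with library totals only (adjusted p = 0.0533) and in limma (adjusted p = 0.0646 with pseudocount 1). Its value with Complex 1 alone was -0.16 ± 0.073 (adjusted p = 0.385). The count of lower members was 1 without combination 3, 0 without control 1, and 5 without control 3 or radiation 2. Without radiation 3, Ndufb4c was higher. It was 15 with the length trend removed, where 16.4% of all tested genes were lower.

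Complex 1 alone moved no subunit gene past the threshold. In edgeR 0 of 85 members were higher and 0 lower, beside 0.812% of all tested genes changed, and 2 had an unadjusted p under 0.05. DESeq2 called none as well, beside 2.39% of all tested genes. The interval was inside a 1.5-fold change for 75 members. The median was 0.069 with 61 of 85 above 0, and all tested genes had a median of 0.0076. Over all tested genes, medians were higher in shorter length classes in this comparison: genes of 500 to 1000 bases had a median of 0.10 and those over 6000 bases one of -0.029. Not every list was higher: cytosolic ribosomal proteins had a median of -0.073, with 68 of 89 below 0. With the length trend removed the median of the members was -0.043, so its sign depended on this choice. The 2 members with an unadjusted p under 0.05 were Cox7a2l and Ndufb4c. Ndufb4c, whose sequence is not unique, had 0.28, 0.67 and 1.16 FPKM in control and 2.40, 1.64 and 1.72 with Complex 1 (log2 1.42 ± 0.63, adjusted p = 0.385).

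Adding Complex 1 to radiation left 0 of 85 members changed in edgeR, beside 0.651% of all tested genes, and 0 in DESeq2, beside 1.35%. The median was 0.073 with 66 of 85 above 0, and 3 members had an unadjusted p under 0.05. These were Ndufb10, an accessory subunit of complex I (0.19 ± 0.084, edgeR adjusted p = 0.459), Cyc1 (0.18 ± 0.079, adjusted p = 0.465) and Atp5d, the delta subunit of the ATP synthase stalk (0.15 ± 0.07, adjusted p = 0.476). Complex I had 35 of 38 members above 0. With the length trend removed the median was 0.0065, with 41 of 85 below 0. Radiation added to Complex 1 changed 0 members in edgeR, beside 9.98% of all tested genes, and 1 (Cox6a2, lower) in DESeq2, beside 12.8%. The median was -0.068, and 3 members had an unadjusted p under 0.05. Those 3 were Cox6a1, Cox6a2 and Cox7c of complex IV. Cox6a2 also passed in edgeR without control 1 or without replicate 3 of Complex 1. Intervals were inside a 1.5-fold change for 71 and 73 members in these comparisons. For the interaction of Complex 1 and radiation, 0 members passed in edgeR, beside 0.0% of all tested genes, 0 passed in DESeq2, beside 0.0439%, and 0 had an unadjusted p under 0.05. The smallest p was that of Ndufs1 (0.15 ± 0.09, adjusted p = 0.997), followed by the core subunit gene Ndufs3 (0.21 ± 0.13, adjusted p = 0.997). Intervals for the interaction lay inside a 1.5-fold change for 67 members.

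Other genes of mitochondrial respiration were followed as lists (numbers are for the effect of radiation, edgeR adjusted p under 0.05, for which 13.2% of all tested genes were lower and 26.5% changed in either direction). Of 49 tested assembly factors, which build the complexes without staying in them, 2 were higher and 2 lower. Coa5, a complex IV assembly factor, was higher (0.14 ± 0.041, adjusted p = 0.0193), as was the complex I assembly factor gene Foxred1 (0.19 ± 0.062, adjusted p = 0.0383). Of 19 regulators of mitochondrial biogenesis, 0 were higher and 6 lower, among them Pprc1, a coactivator related to PGC-1 (-0.31 ± 0.047, adjusted p = 0.000552), and Myc, a growth regulator that also drives mitochondrial genes (-0.47 ± 0.074, adjusted p = 0.000613). Pprc1 had 20.5, 18.9 and 18.3 FPKM in control and 15.1, 15.7 and 15.6 with radiation, with no overlap. Of 18 genes of pyruvate oxidation and the citric acid cycle, 5 were lower and none higher, including Cs (citrate synthase, -0.17 ± 0.04, adjusted p = 0.00646) and Idh2 (mitochondrial isocitrate dehydrogenase, -0.30 ± 0.049, adjusted p = 0.000707). Idh2 had 46.8, 49.9 and 46.2 FPKM in control and 37.1, 43.0 and 37.3 with radiation. Of 23 carriers of electrons and of ADP or ATP, 1 was lower (Coq7, an enzyme of ubiquinone synthesis, -0.35 ± 0.11, adjusted p = 0.0377). Of 78 mitochondrial ribosomal proteins, 2 were higher and 10 lower with a median of -0.085. Cytosolic ribosomal proteins had 1 higher and 52 lower of 89, with a median of -0.25 on the log2 scale.

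The 13 subunits encoded by mitochondrial DNA had 0 calls for the effect of radiation and their values are given side by side with the nuclear ones, without a test of the difference. Against control, 5 of the 13 rose with Complex 1 (mt-Nd3, mt-Nd4l, mt-Co2, mt-Co3 and mt-Atp6). Of all 13668 tested genes 98 were higher in that comparison, so the 0 of 85 nuclear members is near the background. For mt-Atp6 the levels were 26.8, 28.6 and 27.9 FPKM in control and 81.4, 59.1 and 67.1 with Complex 1 (1.29 ± 0.17, edgeR adjusted p = 0.00736). In these 5 genes 98.1% or more of the 31-base words also occur in other annotated loci, so their counts are uncertain. mt-Nd1, with 0.0% of its words shared, had 2565, 3264 and 3078 FPKM in control and 3492, 2572 and 2818 with Complex 1 (-0.031 ± 0.17, adjusted p = 0.966). In the combination mt-Nd1 had 1832, 1990 and 2316 FPKM and fell against control (-0.59 ± 0.17, adjusted p = 0.0293). In that comparison 5 of the 13 were higher and 1 lower, beside 21.9% of all tested genes changed in either direction. The 5 higher ones were the same as with Complex 1 alone, such as mt-Atp6 (1.11 ± 0.17, edgeR adjusted p = 0.000775) and mt-Nd3 (1.68 ± 0.27, adjusted p = 0.000904).

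**Figure D5:**
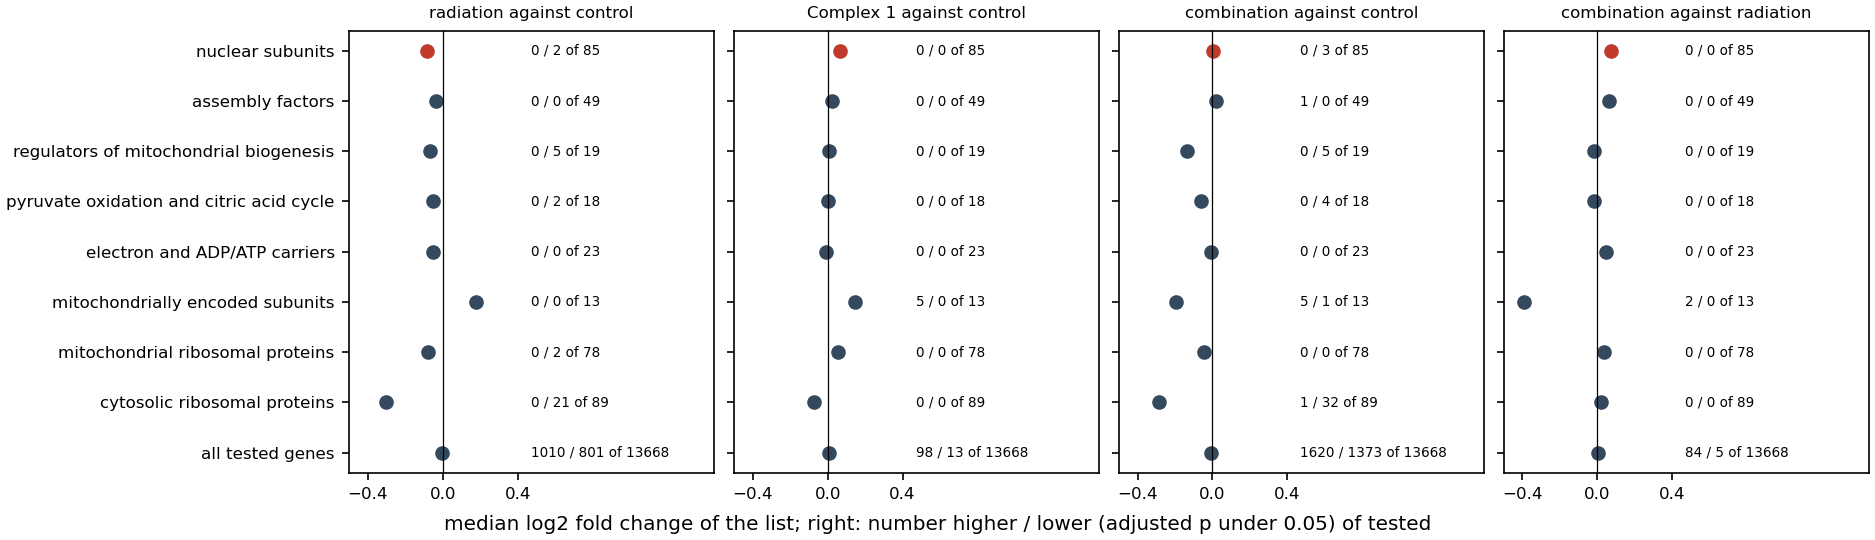
Median log2 fold change (horizontal axis) of the nuclear subunits (red), 7 other lists and all tested genes in 4 comparisons, with the number higher and lower and the number tested at the right of each panel. The nuclear subunits stay within 0.083 of 0 in all 4 panels, and cytosolic ribosomal proteins reach -0.30 with radiation.

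Promoters of subunit genes are known for binding sites of nuclear respiratory factor 1 (NRF1) and of the ETS factor GABP, which tie the nuclear genes to each other. Windows from 250 bases before to 50 after the start site were found in RefSeq (GRCm38.p6) for 69 symbols of the members, and 70 member entries. Both entries named Atp5o were matched to the same window, which holds an NRF1 match. This window therefore enters the shares of all members and of complex V more than once. The NRF1 motif (GCGC, any base, T, then GCGC, on either strand) occurred in a window of 25.7% of these entries and of 5.19% of 27025 genes. CCGGAAG (ETS, either strand) occurred in 24.3% and 9.93%, and AAGATGGCG (YY1, either strand) in 10.0% and 1.64%. By complex, NRF1 letters were found for 21.9% of entries of complex I (n = 32), 2 of 3 of complex II, 1 of 5 of complex III, 7.14% of complex IV (n = 14) and 43.75% of complex V (n = 16, with Atp5o entered more than once). A match describes letters and not binding. The 27025 genes include genes that were not tested here, and they were not matched to the members in level or base composition. These windows are shown for the members lower in irradiated tumours that had one, with Sdha, the member of smallest spread, for contrast. Each line gives the 200 bases before the start site, 5′ to 3′ on the gene's strand, with the matching letters in capitals. Positions are chr10:80406822-80407021, minus strand (Uqcr11), chr4:116075071-116075270, minus strand (Uqcrh), chr15:102671048-102671247, minus strand (Atp5g2), chr5:108434400-108434599, minus strand (Atp5k), chr10:94198835-94199034, plus strand (Ndufa12) and chr13:74350241-74350440, minus strand (Sdha), all in GRCm38.p6.
Uqcr11: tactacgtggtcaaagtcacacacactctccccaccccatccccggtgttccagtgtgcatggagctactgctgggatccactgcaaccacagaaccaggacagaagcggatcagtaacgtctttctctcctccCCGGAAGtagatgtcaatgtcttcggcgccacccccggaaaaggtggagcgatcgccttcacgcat
Uqcrh: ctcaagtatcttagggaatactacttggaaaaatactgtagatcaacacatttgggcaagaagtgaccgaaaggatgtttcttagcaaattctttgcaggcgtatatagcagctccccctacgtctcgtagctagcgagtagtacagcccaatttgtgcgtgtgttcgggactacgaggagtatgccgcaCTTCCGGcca
Atp5g2: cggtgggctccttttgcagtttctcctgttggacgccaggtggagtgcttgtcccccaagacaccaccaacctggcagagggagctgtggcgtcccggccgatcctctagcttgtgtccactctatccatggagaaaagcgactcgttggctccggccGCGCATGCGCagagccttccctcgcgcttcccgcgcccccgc
Atp5k: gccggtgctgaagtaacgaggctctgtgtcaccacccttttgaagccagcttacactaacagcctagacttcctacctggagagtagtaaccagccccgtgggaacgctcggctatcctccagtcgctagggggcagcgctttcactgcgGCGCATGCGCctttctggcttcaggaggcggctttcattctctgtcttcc
Ndufa12: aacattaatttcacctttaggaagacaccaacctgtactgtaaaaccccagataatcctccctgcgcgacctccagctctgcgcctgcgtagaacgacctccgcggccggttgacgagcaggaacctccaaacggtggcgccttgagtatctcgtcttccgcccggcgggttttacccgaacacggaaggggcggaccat
Sdha: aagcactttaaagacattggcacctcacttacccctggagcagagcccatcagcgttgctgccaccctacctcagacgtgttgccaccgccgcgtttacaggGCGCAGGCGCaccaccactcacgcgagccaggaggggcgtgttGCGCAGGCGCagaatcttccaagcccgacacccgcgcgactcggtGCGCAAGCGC
Uqcr11 and Uqcrh each held an ETS match, which began 66 and 10 bases before the start site. Atp5g2 and Atp5k each held an NRF1 match, beginning 42 and 50 bases before it, and Atp5k also held an ETS match after the start site, in the bases of the window not printed. Ndufa12 had none of the 3 motifs in its window, and Sdha had 3 NRF1 matches beginning 98, 55 and 10 bases before the start. Members that fell and the member of smallest spread thus both included windows with NRF1 letters. No windows were used for Cyc1, Ndufs1, Uqcrq and Cox6a2.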

How the data were processed

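RNA sequencing of 12 tumour libraries (4 groups of 3) gave a raw count per gene and library, deposited by the authors as whole numbers together with their FPKM. Recomputing FPKM from the counts and exonic lengths gave the deposited FPKM within 0.005. STAR 2.5.3a, HTSeq 2.0.1, DESeq2 and build mm39 are named per the submitters' processing notes. The strand setting, annotation and any filter were not given in the sources used here, so a gene and an overlapping or antisense neighbour may share reads. Gene coordinates are in mm39, per the deposited table.

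Members, lists and named genes were chosen with earlier results of these data known. Genes with at least 1 FPKM in at least 3 libraries (13668) were tested on counts with edgeR 4.0.16 (R 4.3.3): TMM scaling, 1 mean per group, all 12 libraries, quasi-likelihood test, Benjamini-Hochberg adjustment over all genes tested, threshold 0.05. Log2 fold changes carry the SE of that fit. Comparisons were 5 between groups, irradiated against non-irradiated libraries with and without Complex 1 (the effect of radiation), and the interaction. Members named are, per complex, the 3 with the smallest p for the effect of radiation, those that passed in a comparison (or the 2 with the smallest p), the highest and lowest level, and fixed isoform pairs. Genes named from lists follow the smallest p for the effect of radiation, and the 5 mitochondrial genes were named after their values were seen. Alternatives were DESeq2 1.42.0, scaling by library totals, no filter, only the groups compared, a replicate block, removal of each library's loess trend on gene length, limma 3.58.1 on log2(FPKM + 1) and log2(FPKM + 0.1), and leaving out each library. 1 member enters the counts and medians but is not reported here by itself. The code was tested on simulated counts. Floors of 3 counts and intervals at low counts cover counting error only. Sequence sharing used 31-base words of GENCODE M21 transcripts.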

Additional observations from a re-analysis of the deposited data

How the results depend on the processing

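No value changed from a called rise to a called fall or the reverse under any alternative run. The number of members lower with radiation against control (2 by edgeR) was 6 with DESeq2, 11 with no filter, 8 with the length trend removed, 4 with a replicate block, 1 with library totals only or only the groups compared, and 0 with limma at either pseudocount. In the combination against control (3 lower, 0 higher) it was 5 with DESeq2, 1 with library totals, 6 lower and 1 higher with no filter, 15 with the length trend removed and 1 with limma at either pseudocount. Against Complex 1 the combination had 1 member lower with DESeq2 and 4 with no filter, and against radiation it had 1 higher with no filter. The effect of radiation (9 lower) gave 19 with no filter, 22 with the length trend removed and 4 with limma at either pseudocount. Calls over all tested genes moved too. With the length trend removed, the share lower went from 5.86% to 9.53% for radiation against control. It went from 10.0% to 16.4% for the combination against control and from 13.2% to 18.0% for the effect of radiation. For the other alternatives these shares are not given, so their counts are not read as particular to the members. Removing the length trend moved the median to -0.043 for Complex 1 against control, -0.13 for the combination against control, -0.15 for radiation against control and -0.11 for the effect of radiation. The cause of these moves was not tested. Leaving out 1 library at a time gave 0 to 9 lower and 0 to 1 higher for radiation against control, 0 to 5 lower and 0 to 1 higher for the combination against control, 0 to 1 lower for the combination against Complex 1, and 4 to 13 lower for the effect of radiation. Where that left 2 libraries in a group, the spread was shared with the other groups. Replicate numbers did not pair the libraries: deviations of same-numbered libraries correlated at -0.20 to 0.16 over 18 pairs, with 4 pairs over 0.1, and the replicate block gave 7 lower for the effect of radiation, without Atp5g2 and Atp5k. Members at low levels, such as Cox6a2 with 1 to 92 counts a library, are limited by depth.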
